A study of Homo sapiens with 8 samples.

Results

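CDX1, CDX2, PDX1, HNF4A, ONECUT1, PROX1, AFP and TTR, genes that mark the gut, liver and pancreas endoderm posterior to the pharynx, were followed while human stem cells were taken towards pharyngeal endoderm. The 8 genes were chosen by name, as the rows whose GENCODE 29 identifiers carry these symbols, and make up 8 of the 58780 annotated genes in each table. The cells were H1, an established human embryonic stem cell line, and RNA-seq was made at 4 stages with 2 libraries each: the undifferentiated cells, called hESC, the definitive endoderm made from them, hDE, then hAFE, which is anterior foregut endoderm, and last hPFE, which is pharyngeal foregut endoderm. All 8 libraries come from this 1 line, no genetic change is named in the labels, and the labels used here give neither the days of culture nor the factors added. The labels of the libraries from hESC and hDE say that they were analysed again from older deposits, and those from hAFE and hPFE do not, so in a comparison across that boundary stage and origin of the library cannot be told apart. The pairs hDE vs hESC and hPFE vs hAFE do not cross that boundary. The labels do not say that the libraries of either pair were made together. Nothing in the labels says that the 2 libraries of a stage were separate cultures. The p-values therefore measure how far 2 libraries differ, which can be technical alone.

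Of the 8 genes, 6 encode transcription factors, and AFP and TTR encode secreted proteins of liver and yolk sac, which are markers of these tissues and not regulators. CDX1 and CDX2 are the homeodomain factors that give endoderm a hindgut and intestinal identity, and they act on posterior HOX genes. PDX1 marks the part of the foregut next to the pancreas and duodenum and is needed for the pancreas to form. ONECUT1, also called HNF6, acts in liver, bile duct and pancreas progenitors, HNF4A is a nuclear receptor of liver, gut and yolk sac endoderm, and PROX1 is a homeodomain factor of liver and pancreas buds that also works in lymphatic endothelium, lens and neural progenitors. During development the pharynx arises from the most anterior endoderm, and these genes are the usual marks of fates that lie posterior to it.

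HNF4A is transcribed from 2 promoters, a downstream one, P1, which is the main one in adult liver, and an upstream one, P2, used in pancreas, stomach and fetal liver. They are shown because HNF4A was the member with the clearest change and its transcripts differ by start. The AFP promoter is shown because the deposited lengths of AFP put most of its estimated hESC abundance on annotated transcripts other than the coding ones. RefSeq's promoter table (GRCh38.p14) held 4 of the 8 genes, with 5 promoters: those of HNF4A, AFP, CDX2 and ONECUT1. In the following 3 sequences, upstream of the start on the plus strand and read 5′ to 3′, capitals mark the motif matches.
HNF4A P2, chr20:44355449-44355698: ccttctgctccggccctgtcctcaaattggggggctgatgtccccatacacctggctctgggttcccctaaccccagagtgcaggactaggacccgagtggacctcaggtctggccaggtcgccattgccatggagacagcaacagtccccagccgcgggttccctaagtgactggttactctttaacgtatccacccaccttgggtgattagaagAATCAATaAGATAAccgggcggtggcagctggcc
HNF4A P1, chr20:44400989-44401238: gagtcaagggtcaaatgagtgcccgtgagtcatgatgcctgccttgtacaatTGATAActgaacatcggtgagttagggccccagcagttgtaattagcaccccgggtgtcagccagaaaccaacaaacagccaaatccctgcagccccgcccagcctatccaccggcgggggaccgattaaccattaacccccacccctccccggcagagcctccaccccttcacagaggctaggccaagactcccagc
AFP, chr4:73435971-73436162: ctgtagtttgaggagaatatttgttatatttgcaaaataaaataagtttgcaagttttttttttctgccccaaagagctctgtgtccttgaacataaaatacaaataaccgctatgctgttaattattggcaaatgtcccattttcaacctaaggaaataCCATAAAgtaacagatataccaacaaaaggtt
Among the words searched on both strands were AATCAAT for ONECUT factors, AGATAA or TGATAA for GATA factors, TGTTTAC or TATTTAC for FOXA factors, CAAAGTCCA for HNF4 and TTTATNG for CDX factors. HNF4A P2 held the ONECUT word, which was present in 1.98% of 35116 promoter windows of up to 250 bases, at positions -34 to -28 from the start, and a GATA word at -26 to -21. HNF4A P1 held a GATA word at -198 to -193, a word present in 14.6% of the windows. The AFP window held 1 match of the CDX word on the reverse strand, at -90 to -84, a word present in 8.93% of windows. Positions are counted from the RefSeq start, and the AFP window stops short of it, where the annotated transcript AFP-202 starts. The CDX2 promoter held 1 FOXA, 1 GATA and 1 CDX word, and the ONECUT1 promoter held none of the words searched. The FOXA and HNF4 words were present in 5.27% and 0.325% of windows. A match describes letters only and shows no binding.

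All 8 genes were near the lower limit of these libraries, which held 12687161 to 17802900 counts each. Of the 64 values, 8 genes in 8 libraries, 27 had no count at all, and 5 reached 1 TPM, a share of all transcripts that allows for their length. The highest was 2.52 TPM, for AFP in the second hESC library. In the same libraries, 48.6% to 59.0% of the 19969 protein-coding genes reached 1 TPM. ONECUT1 and PROX1 had a count in every library, and PDX1 in none. Summed over the 8 genes, the TPM was 2.32 and 3.43 in hESC, 0.23 and 0.33 in hDE, 3.29 and 0.57 in hAFE, and 2.15 and 1.32 in hPFE. The genes therefore differ in stage: AFP and ONECUT1 held most of the hESC level, HNF4A most of the hDE level, ONECUT1 and TTR most of that in the first hAFE library. With so few counts a cell type present as a small fraction and a low level in all cells look alike, and in bulk RNA fewer cells of a type and less RNA per cell cannot be told apart. The deposited posterior SD of the counts was 0 for all 8 genes, that is, no reads of these genes were split with another gene.

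**Figure D1:**
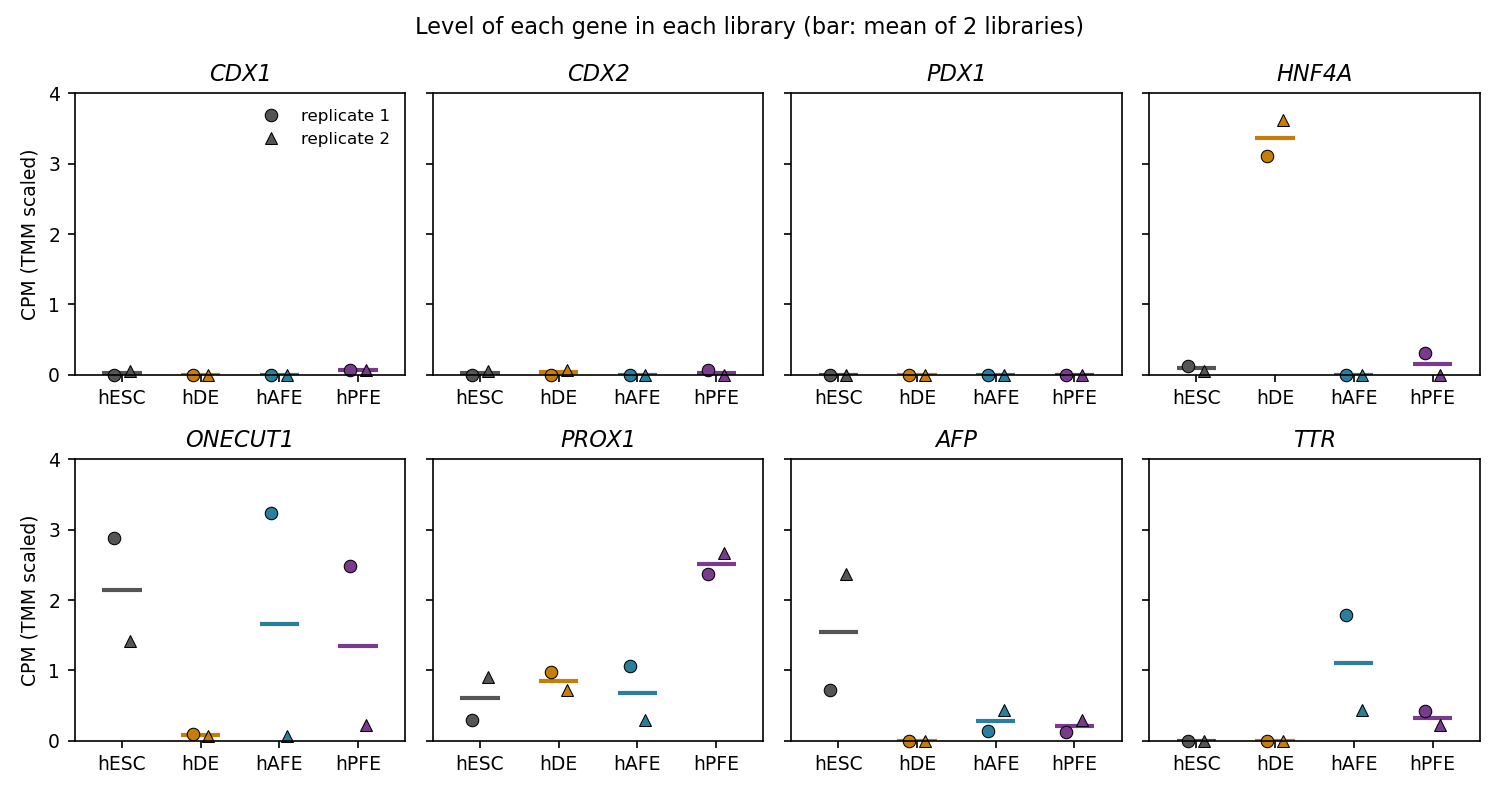
Level of each of the 8 genes in each library, in CPM, where each library's counts are divided by its size after TMM scaling, by stage from hESC to hPFE; circles are replicate 1, triangles replicate 2 and bars the mean of 2 libraries. No value reaches 4 CPM, HNF4A stands out in hDE, PROX1 in hPFE, TTR is seen in hAFE and hPFE, and the 2 libraries of ONECUT1 lie far apart in hAFE and hPFE.

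A count filter kept 17446 genes for testing, and 4 of the 8 were among them: HNF4A, ONECUT1, PROX1 and AFP. CDX1, CDX2, PDX1 and TTR did not pass it and have no test. HNF4A passed through its hDE counts alone and AFP through its hESC counts alone, so a difference between that stage and another goes with the gene's having been tested. In hDE vs hESC, 41.9% of the tested genes were called by edgeR's quasi-likelihood test (adjusted p under 0.05), 20.3% higher and 21.6% lower, and of the 4 genes here HNF4A rose and AFP fell. In hAFE vs hDE, 30.2% were called, 15% higher and 15.2% lower, and HNF4A fell. In hPFE vs hAFE, 7.49% were called, 4.77% higher and 2.71% lower. Of the 4 genes, 0 were called by edgeR with the filter, DESeq2 or limma on TPM. By edgeR 1 of the 4, PROX1, had an unadjusted p under 0.05 (0.0239). With no filter edgeR called PROX1 (adjusted p = 0.0205). In hAFE vs hESC, 39.8% were called, 19.2% higher and 20.6% lower. Of the 4 genes, 0 were called by the main edgeR fit or DESeq2. Limma on log2(TPM + 1) called 1, AFP, whose unadjusted p in the main edgeR fit was 0.0267. AFP was also called by edgeR with no filter (adjusted p = 0.0084) and with a replicate block (adjusted p = 0.0301). In hPFE vs hESC, 45% were called, 21.6% higher and 23.3% lower, and PROX1 rose and AFP fell. In hPFE vs hDE, 33.6% were called, 16.6% higher and 17% lower, and HNF4A fell. Counts of 1 or 2 genes of 4 are near these background shares, so they are read gene by gene and not as a property of the group. These comparisons share stages and are not independent of each other.

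**Figure D2:**
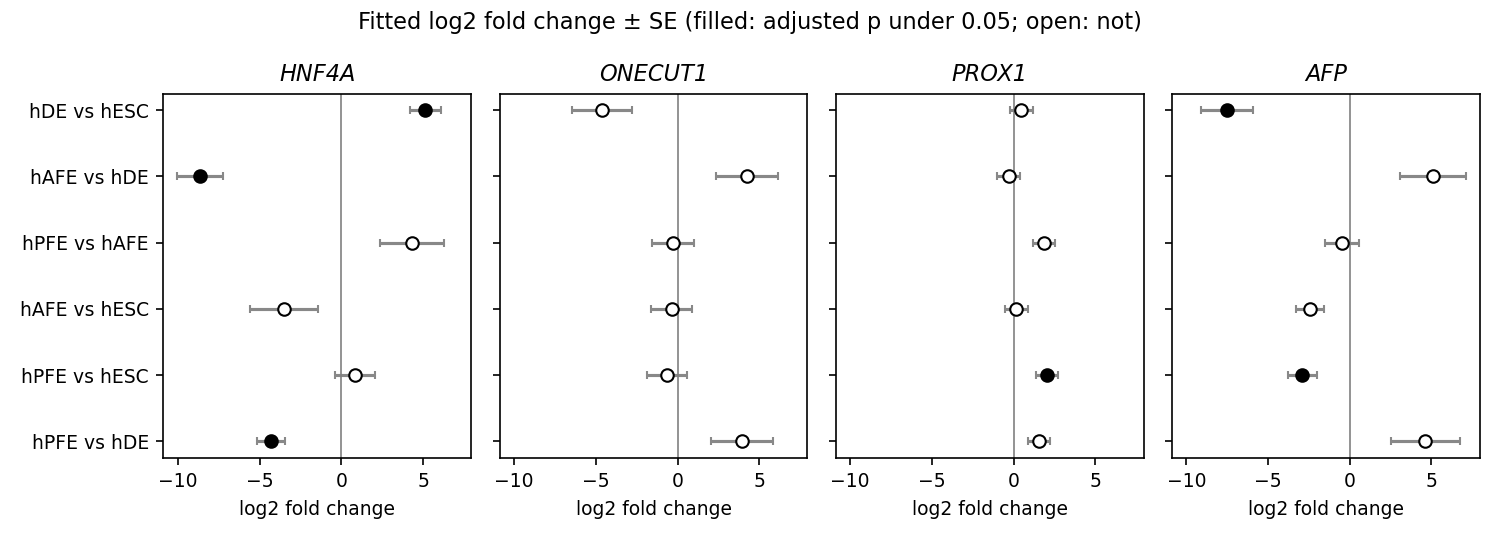
Fitted log2 fold change of the 4 tested genes in the 6 comparisons, named as first stage vs second, with bars of 1 SE; filled points have an adjusted p under 0.05 and open points do not. HNF4A is filled 3 times, AFP in hDE and hPFE against hESC, PROX1 in hPFE vs hESC and ONECUT1 never; points of HNF4A in hAFE and of AFP in hDE rest on a stage with no counts, so their size is not a measured fold.

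The 2 posterior gut regulators were essentially unread at every stage. CDX1 (chr5:150166795-150184558, plus strand) had 1 count in the second hESC library, 1 in each hPFE library and 0 in the other 5. CDX2 (chr13:27962137-27971139, minus strand) had 1 count in the second hESC library, the second hDE library and the first hPFE library, and 0 in the others. The totals of both genes, at most 2 counts in a stage, lay under the 3 counts that a total of 0 allows. Over the 2 libraries of a stage 3 counts are 0.0874 CPM in hESC, 0.12 CPM in hDE, 0.104 CPM in hAFE and 0.0989 CPM in hPFE, and the limit covers counting error only. These limits hold for a total of 0, and a total of 1 or 2 counts allows a higher level. CDX1 and CDX2 were thus read at the edge of detection in some stages and not at all in others.

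The third CDX gene behaved differently. CDX4, the X-linked paralog, which acts in the posterior embryo, had 43 and 46 counts in hESC, 0 and 1 in hDE, and none in hAFE or hPFE. In hDE it was 64.9-fold lower than in hESC (95% interval 11.4 to 2592, counting error only; edgeR adjusted p = 0.0039). In hAFE it was at least 24.9-fold lower than in hESC (adjusted p = 0.00304) and in hPFE at least 26.2-fold lower (adjusted p = 0.00241). CDX4 passed the count filter through hESC alone, so these differences go with its having been tested. The related homeobox genes GSX1 and GSX2 had 0 and 1 counts over all 8 libraries. Of 14 genes of a list of posterior HOX and hindgut patterning genes, which included CDX4, 12 stayed under 1 CPM in every library, and CDX4 was the 1 gene that passed the filter. EVX1 and HOXC9 had no count anywhere. Summed over the list, the level was 2.66 to 2.82 CPM in hESC, 0.797 to 0.801 CPM in hDE, 0.198 to 0.219 CPM in hAFE, and 5.77 and 0.289 CPM in the first and second hPFE libraries.

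That gap within hPFE came from HOX genes of the posterior body. The first hPFE library had a count for 10 of the 14 genes and the second for 2. HOXA10 had 27 counts in the first hPFE library and 0 in the second, HOXA11 16 and 0, HOXA13 14 and 2, HOXB9 10 and 2, and HOXD10 11 and 0. Each of these 5 genes stayed under 10 counts in the 7 other libraries. They were chosen after their values were seen. CDX1 and CDX2, which are upstream of such genes in the hindgut, had 1 count each in that library.

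Genes of the intestinal epithelium differed in course. Of 17 such genes, SI, KRT20 and FABP2 had no count and 11 stayed under 1 CPM in every library, and 7 were tested. Of all genes tested, 41.9% were called in hDE vs hESC and 45% in hPFE vs hESC. In hDE vs hESC, LGR5, VIL1 and LCT rose and none fell, with LCT, lactase, at 10 and 10 counts in hDE against 0 and 2 in hESC (adjusted p = 0.0290). In hPFE vs hESC, 3 rose, LGR5 and TFF3 among them, and GUCY2C and VIL1 fell, with a list median log2 fold change of 3.17 against 0.02 over all genes tested. LGR5, a WNT-responsive receptor of intestinal stem cells that is also made in early endoderm, averaged 0.178 ± 0.172 CPM in hESC, 19.1 ± 0.672 CPM in hDE, 0.033 ± 0.0467 CPM in hAFE and 7.49 ± 0.393 CPM in hPFE (SD, n = 2 each). Its fall in hAFE vs hDE (adjusted p = 0.00014) and its rise in hPFE vs hAFE (adjusted p = 0.00253) were both called by edgeR. TFF3, a secreted mucosal peptide, had 24 and 27 counts in hPFE against 2 and 1 in hESC (adjusted p = 0.00193). GUCY2C, the intestinal guanylate cyclase receptor, had no count in hAFE or hPFE, against 37 and 67 in hESC (adjusted p = 0.0029 for hAFE and 0.00231 for hPFE). ISX, an intestine-specific homeobox gene that CDX2 is known to act on, had 19 and 0 counts in hAFE and 14 and 5 in hPFE, against 0 and 1 in hDE, and was not called by edgeR in any of the 6 comparisons (lowest adjusted p = 0.0736).

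The pancreatic master regulator was not detected at this depth. PDX1 (chr13:27920020-27926231, plus strand) had 0 counts in all 8 libraries. Its antisense neighbour PLUT, a long noncoding RNA within 5 kb, had 2 counts over the 8 libraries, both in 1 library. Of 19 pancreatic regulators and hormones, 5 also had no count in any library: PTF1A, NEUROD1, GP2, INS and GCG. They include genes of acinar and endocrine progenitors and the hormones insulin and glucagon. These 5 are named because they had no count. Others of the list, such as RFX6, NKX6-1 and SST, had counts, given below.

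ONECUT1 (chr15:52756989-52791078, minus strand) had a count in every library, with its lowest stage total in hDE, and differed between libraries of hAFE and of hPFE. It had 48 and 25 counts in hESC (1.52 and 0.76 TPM), 1 and 1 in hDE (0.02 and 0.01 TPM), 49 and 1 in hAFE (1.71 and 0.02 TPM) and 41 and 3 in hPFE (1.24 and 0.17 TPM). The hDE libraries were both lower than both hESC libraries, and the hAFE and hPFE libraries each spanned nearly the whole range. In hDE the stage total was 26.6-fold lower than in hESC (95% interval 7.11 to 224, counting error only), with a log2 fold change of -4.61 ± 1.84 (SE) that did not pass in edgeR (adjusted p = 0.079) and passed in DESeq2 (adjusted p = 0.0192). Without the first or the second hAFE library the hDE vs hESC difference passed in edgeR (adjusted p = 0.0218 and 0.0207), and with only the 4 hESC and hDE libraries the adjusted p was 0.000128. In hAFE vs hDE the log2 fold change was 4.25 ± 1.87 (adjusted p = 0.126). It passed in DESeq2 (4.36, adjusted p = 0.0430), with no filter (4.26, adjusted p = 1.93e-06) and without the second hAFE library (5.20, adjusted p = 0.0264), and without the first hAFE library it was -0.12.

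The ONECUT family split by stage. ONECUT2, the paralog active in liver, pancreas and neurons, had 53 and 65 counts in hESC, 641 and 604 in hDE, 233 and 402 in hAFE and 20 and 31 in hPFE. It rose in hDE vs hESC by 3.87 ± 0.39 on the log2 scale (edgeR adjusted p = 0.00032), fell by 1.17 ± 0.34 in hAFE vs hDE (adjusted p = 0.0355) and fell by 3.71 ± 0.41 in hPFE vs hAFE (adjusted p = 0.00397). In counts and CPM its hDE libraries were above all others, the reverse of ONECUT1, whose lowest stage was hDE. ONECUT3 had no count. On the length-adjusted scale ONECUT2 had 1.09 and 0.87 TPM in hDE and 0.57 and 1.04 TPM in the first and second hAFE libraries. In TPM the second hAFE library was thus above the second hDE library. In hAFE ONECUT1, at 1.71 and 0.02 TPM, was the higher of the pair in the first library and the lower in the second.

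Some other genes of the pancreatic list rose. Of 19 pancreatic regulators and hormones, 11 stayed under 1 CPM in every library and 6 were tested. In hPFE vs hESC 3 of the 6 rose, ISL1 and SOX9 among them, and none fell. Beside this, 45% of all tested genes were called there, 21.6% higher. The list median log2 fold change was 3.0 against 0.02 over all genes. ISL1, a LIM-homeodomain factor of pharyngeal endoderm and islets, averaged 52.7 ± 26.0 CPM in hPFE against 0.235 ± 0.0924 in hESC (adjusted p = 0.00184). SOX9, a factor of many progenitor epithelia, had 87 and 193 counts in hPFE against 65 and 52 in hESC (adjusted p = 0.0443). RFX6, a winged-helix factor of gut and islet endocrine cells, had 151 and 1 counts in hAFE and 24 and 7 in hPFE, against 1 and 0 in hESC and none in hDE, and rose in hAFE vs hESC (adjusted p = 0.0435). PAX6 averaged 1.47 ± 1.27 CPM in hPFE against 0.405 ± 0.147 in hESC and did not pass (adjusted p = 0.128). Chosen after their values were seen, NKX6-1, a beta-cell and ventral neural factor, had 26 counts in the first hPFE library and 1 in the second, and SST, the hormone somatostatin, had 45 and 0.

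Among the liver regulators, HNF4A (chr20:44355700-44434596, plus strand) was read mainly in definitive endoderm. It had 2 and 1 counts in hESC, 35 and 50 in hDE, 0 and 0 in hAFE and 5 and 0 in hPFE. Both hDE libraries were far above the other 6, at 3.12 and 3.62 CPM, and still only 0.17 and 0.28 TPM. In hDE it was 38.9-fold higher than in hESC (95% interval 12.9 to 192, counting error only), a log2 fold change of 5.14 ± 0.93 (edgeR adjusted p = 0.00562). In hAFE it was at least 32.6-fold lower than in hDE (adjusted p = 0.00459). In hPFE it was lower than in hDE, with a log2 fold change of -4.32 ± 0.87 (adjusted p = 0.0103). The rise lost its call without the first or the second hESC library (adjusted p = 0.0512 and 0.0685), and the hPFE vs hDE fall without either hDE library (adjusted p = 0.0564 and 0.0787). The fall in hAFE kept its call in all 15 alternatives run. HNF4G, the paralog of gut and kidney, took another course, with 31 and 55 counts in hESC, 5 and 8 in hDE, 30 and 4 in hAFE and 18 and 6 in hPFE, and no edgeR call in any of the 6 comparisons (lowest adjusted p = 0.067, in hDE vs hESC).

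Several early endoderm regulators also rose in hDE, and part of them fell after it. Of 15 hepatic and liver-bud regulators, 11 were tested; in hDE vs hESC 7 rose, among them FOXA1, FOXA2, GATA4, GATA6, HHEX and ONECUT2, and NR5A2 fell, with a list median log2 fold change of 6.0 against -0.01 over all genes. In hAFE vs hDE 5 fell (FOXA3, GATA4, GATA6, HHEX and ONECUT2) and FOXA1 and TBX3 rose, with a median of -1.17 against 0.01. Over all tested genes 41.9% were called in hDE vs hESC and 30.2% in hAFE vs hDE. GATA4, a zinc-finger factor of heart, liver and gut endoderm, averaged 0.87 ± 0.92 CPM in hAFE against 103 ± 6.30 in hDE (adjusted p = 0.00013). FOXA2, a pioneer factor of endoderm, averaged 29.4 CPM in hAFE against 27.6 CPM in hDE and did not pass (adjusted p = 0.888). FOXA1, its relative, averaged 52.6 ± 36.7 CPM in hAFE against 6.51 ± 0.522 in hDE (adjusted p = 0.00487).

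PROX1 (chr1:213983181-214041502, plus strand) was highest at the pharyngeal stage. It had 5 and 16 counts in hESC, 11 and 10 in hDE, 16 and 4 in hAFE and 39 and 37 in hPFE. The hPFE libraries, at 2.37 and 2.67 CPM, were above all 6 others, whose range was 0.292 to 1.06 CPM and among which the stages overlapped. In hPFE vs hESC it was higher by 2.04 ± 0.67 on the log2 scale (edgeR adjusted p = 0.0387). In hPFE vs hAFE, neither labelled as analysed again, the log2 fold change was 1.87 ± 0.67 (adjusted p = 0.128), and in hPFE vs hDE 1.56 ± 0.66 (adjusted p = 0.107). With no filter PROX1 passed in edgeR in hPFE vs hAFE (adjusted p = 0.0205). A call in hPFE vs hDE came in 4 of 15 alternatives (lowest adjusted p = 0.00835, by limma on log2(TPM + 0.1)). Of 15 alternatives, 8 ended the hPFE vs hESC call, DESeq2 (adjusted p = 0.0757) and each of 6 left-out libraries (adjusted p from 0.0593 to 0.215) among them. On the TPM scale its level was low, 0.20 and 0.28 TPM in hPFE. Its paralog PROX2 had 7 and 2 counts in hESC, 1 in hDE and none later.

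The 2 secreted markers did not follow each other. AFP, the fetal albumin relative (chr4:73431138-73456174, plus strand), had 12 and 42 counts in hESC (0.67 and 2.52 TPM), none in hDE, 2 and 6 in hAFE (0.10 and 0.21 TPM) and 2 and 4 in hPFE (0.24 and 0.54 TPM). Both hESC libraries were above the other 6. In hDE it was at least 13.1-fold lower than in hESC (edgeR adjusted p = 0.00994). In hPFE it was lower than in hESC, with a log2 fold change of -2.90 ± 0.90 (adjusted p = 0.0368), and in hAFE the log2 fold change was -2.43 ± 0.86 (adjusted p = 0.0624). The hDE call was lost without either hDE library (adjusted p = 0.0502 and 0.0565), and the hPFE call in 7 of 14 alternatives, among them DESeq2 (adjusted p = 0.114).

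TTR, transthyretin (chr18:31557010-31599021, plus strand), the carrier of thyroxine and of retinol-binding protein, was read only in the later stages. It had no count in hESC or hDE, 27 and 6 in hAFE (1.40 and 0.32 TPM), and 7 and 3 in hPFE (0.38 and 0.28 TPM). In hAFE it was at least 9.56-fold higher than in hDE and at least 13.1-fold higher than in hESC. In hPFE it was at least 2.75-fold higher than in hDE and at least 3.77-fold higher than in hESC. These are bounds against 3 counts over the lower stage's 2 libraries. TTR did not pass the filter; with no filter, its adjusted p in edgeR was 5.89e-05 for hAFE vs hDE, 8.78e-06 for hAFE vs hESC, 0.00565 for hPFE vs hESC, 0.0178 for hPFE vs hDE and 0.215 for hPFE vs hAFE. That fit gave far smaller values for other members too, such as 3.78e-09 for HNF4A in hDE vs hESC, against 0.00562 with the filter, so those of TTR cannot be set beside the filtered ones. The no-count stages and the stages with counts differ in the origin of the libraries as well.

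The genes that lie or act beside AFP and TTR stayed low, except RBP4 in 1 library. ALB, albumin, next to AFP on chromosome 4, had 1 to 4 counts in every library, and AFM, afamin, had none. GC, the vitamin D binding protein, had 13 counts over the 8 libraries, 6 of them in the first hAFE library. RBP4, the retinol carrier that TTR binds in plasma, had 77 counts in the second hAFE library and 0 to 2 in each of the 7 others. Its level there, 4.33 TPM, was above the highest value of the 8 genes, 2.52 TPM. RBP4 and TTR thus peaked in different hAFE libraries.

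Of 20 secreted proteins of the liver, 7 were tested, APOC3 and APOH had no count and 9 stayed under 1 CPM in every library. In hDE vs hESC APOA1, APOA2 and VTN rose and AMBP fell, with a list median log2 fold change of 2.30 against -0.01 over all genes. APOA1, the main protein of high-density lipoprotein, had 91 and 142 counts in hDE against 2 and 5 in hESC (adjusted p = 0.00068). APOA2, its partner, had 72 and 166 counts in hDE against 0 and 1 in hESC (adjusted p = 0.00192). Both fell in hAFE vs hDE (adjusted p = 0.00631 and 0.00705), the comparison in which HNF4A fell. DLK1, TF and VTN rose in hPFE vs hESC and AMBP and APOB fell, with a median of 1.49 against 0.02. The shares of all tested genes called were 41.9% in hDE vs hESC and 45% in hPFE vs hESC. DLK1, a membrane protein of hepatoblasts and many other progenitors, made most of the list's level in hAFE and hPFE: it had 1197 and 746 counts in hAFE and 1032 and 166 in hPFE, against 7 and 6 in hESC and 28 and 19 in hDE. VTN, vitronectin, had 77 and 22 counts in hPFE against 0 and 1 in hESC (adjusted p = 0.0014). Chosen after their values were seen, fibrinogen FGA had 27 counts in the first hAFE library and 0 in the second, and prothrombin F2 39 and 2.

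The deposited tables also give for each gene a mean transcript length weighted by estimated abundance, which shows which annotated transcripts the few reads were assigned to. For HNF4A it was 5673.07 bases in the first hDE library. Only HNF4A-201, of 6445 bases and with its start on the P1 side, is longer, so part of the abundance estimated there was given to a P1 transcript. In the second hDE library it was 4278.94 bases, below both HNF4A-201 and HNF4A-209, a P2 transcript of 4763 bases, so the length does not tell the start used. The starts of the 2 groups lie 45.6 kb apart. For TTR the length was 825 bases in both hPFE libraries, that of TTR-206, which starts 34.7 kb upstream of TTR-201, and 957 bases, that of TTR-201, in the second hAFE library. The first hAFE library, with the most counts, had 945.15 bases. The TTR counts of hPFE were thus given to another annotated start than those of the second hAFE library, though they are 10 counts in all.

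Most of the estimated AFP abundance in hESC lay on transcripts other than the annotated coding ones. The length was 660.82 and 637.13 bases in the hESC libraries, while the 2 coding transcripts, AFP-201 and AFP-202, have 1914 and 2484 bases. Even with all other abundance on the shortest transcript, of 197 bases, the coding ones held at most 27.01% and 25.6% of the AFP abundance in hESC, 44.9% and 68.0% in hAFE, and 16.2% and 25.3% in hPFE. These are shares of transcript abundance and not of reads, of which a long transcript gives more. The other 5 transcripts are annotated as processed transcripts or with retained introns. These lengths also enter TPM: 2 counts of AFP gave 0.24 TPM in the first hPFE library at 476 bases and 0.10 TPM in the first hAFE library at 968.42 bases. PROX1 gave 0.08 TPM from 5 counts in the first hESC library at 1762.3 bases, and 0.05 TPM from 16 counts in the second at 8240 bases.

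**Figure D3:**
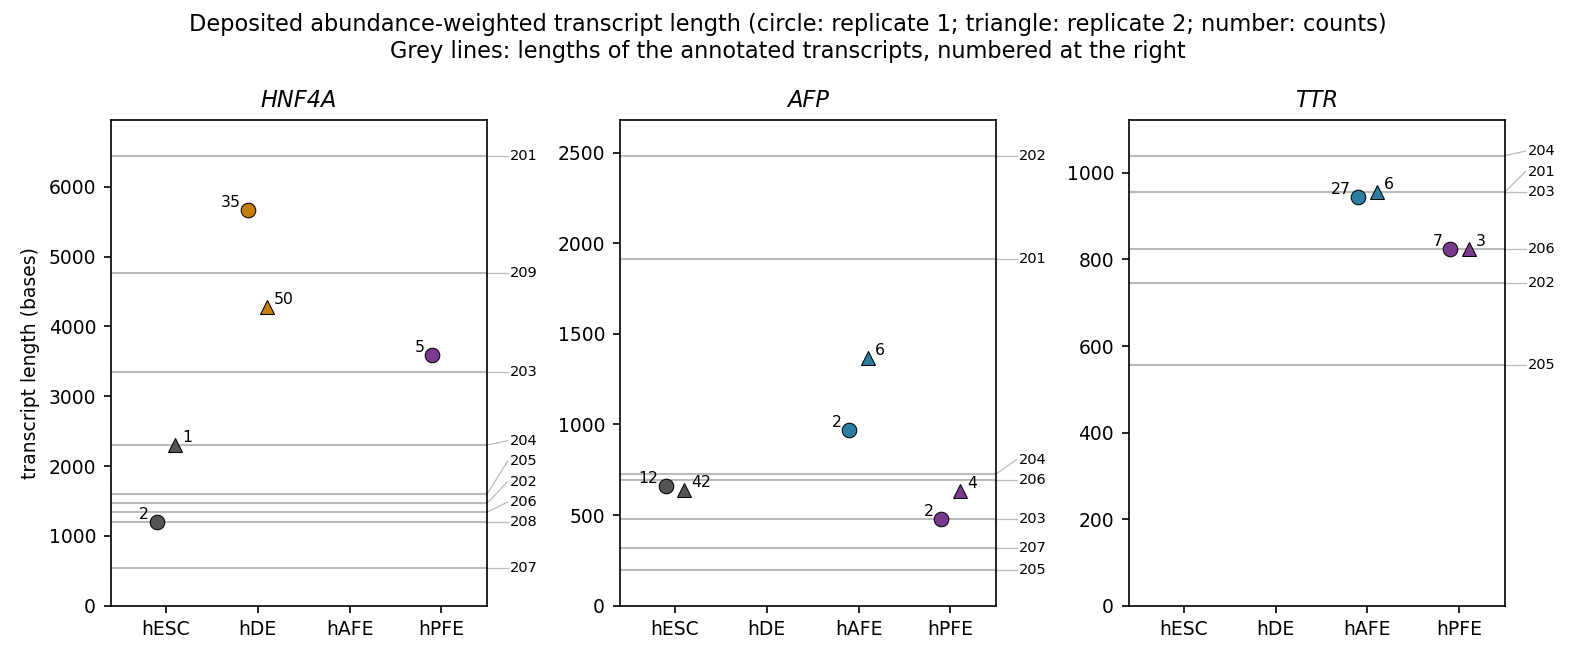
Deposited abundance-weighted transcript length in bases for HNF4A, AFP and TTR in each library with a count, by stage; circles are replicate 1, triangles replicate 2, the number beside a point is its count and grey lines are the lengths of the annotated transcripts, numbered at the right. HNF4A in the first hDE library lies above every line but HNF4A-201, AFP in hESC lies far under its coding transcripts AFP-201 and AFP-202, and TTR in hPFE lies on TTR-206.

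Neighbouring genes held few reads. Annotated genes overlapping a member or within 5 kb numbered 11, around 4 members, and 5 of them had no count. The highest was 3 counts in a library, for PROX1-AS1, the antisense gene at the PROX1 start. HNF4A-AS1, antisense within HNF4A, had none.

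Set beside other endoderm, the 8 genes summed to far less than the definitive endoderm list in hDE and the pharyngeal list in hPFE. The summed level of the 8 genes was 4.02 to 4.86 CPM in hESC, 4.18 to 4.49 CPM in hDE, 1.24 to 6.21 in hAFE and 3.46 to 5.83 in hPFE. Of 14 pharyngeal endoderm genes, 12 were tested and 9 rose in hPFE vs hESC with none falling. Over all tested genes 21.6% were called higher there. The list median log2 fold change was 6.02 against 0.02 over all genes. The summed level of the pharyngeal list was 214 to 352 CPM in hPFE, against 133 to 134 CPM in hESC, where SOX2 made up most of it. PAX1, the thymus and pharyngeal pouch factor, had 436 and 240 counts in hPFE against 0 and 9 in hAFE (adjusted p = 0.0161). All 12 definitive endoderm genes rose in hDE vs hESC, where 20.3% of all tested genes were called higher. Some of the 12 passed the filter through hDE alone, so their rise goes with their having been tested. The summed level of the 12 was 9543 to 10568 CPM in hDE against 25.7 to 27.3 CPM in hESC. CER1 made up most of the hDE sum, at 7219 and 7995 CPM. The sums cover 8, 12 and 14 genes, and CPM does not allow for length. Of 10 stomach genes, 1 was tested and the sum was at most 3.34 CPM in a library: CLDN18, a claudin of stomach and lung, rose in hDE vs hESC (25 and 35 counts against 0 and 0, adjusted p = 0.00375) and fell in hAFE vs hDE, having passed the filter through hDE alone. Of 10 lung and thyroid genes, 3 were tested, and FOXE1, a thyroid and pharyngeal forkhead factor, rose in hPFE vs hAFE (432 and 928 counts against 15 and 68, adjusted p = 0.0224). NKX2-1, the factor of lung and thyroid buds, had 12 and 1 counts in hPFE and at most 2 in each other library.

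**Figure D4:**
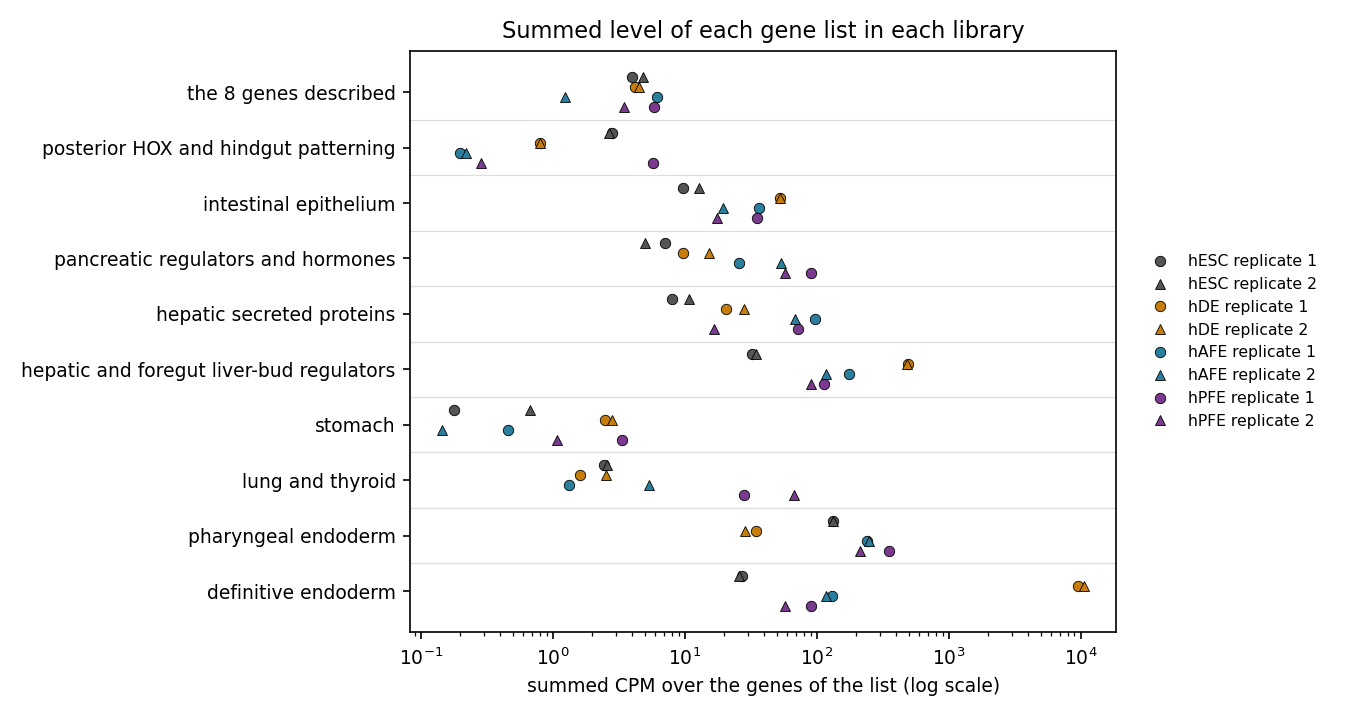
Summed level in CPM, on a log scale, of the 8 genes and of 9 lists of endoderm genes in each library; colours are stages from hESC to hPFE, circles replicate 1 and triangles replicate 2. The 8 genes stay between 1.24 and 6.21 CPM in every library, the definitive endoderm list peaks in hDE, the pharyngeal list is highest in hAFE and hPFE, and the posterior HOX list differs between the 2 hPFE libraries (5.77 and 0.289 CPM).

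Most of the 8 genes are also expressed outside gut endoderm, so markers of those cells are given here. The part of those cells in the results was not tested. Of all genes tested, 30.2% were called in hAFE vs hDE, 39.8% in hAFE vs hESC and 45% in hPFE vs hESC. The share was 7.49% in hPFE vs hAFE and 33.6% in hPFE vs hDE. For AFP and TTR, also yolk sac genes, a list of 15 yolk sac and visceral endoderm genes summed to 265 to 267 CPM in hESC, 520 to 545 CPM in hDE, 390 to 618 in hAFE and 443 to 594 in hPFE, mostly from LAMB1 and APOE. In hAFE vs hDE 5 of 11 tested rose (DAB2, LAMB1, LRP2, NID2 and TF) and 2 fell (APOA1 and APOE), while SOX7 had at most 15 counts in a library. For TTR, also a choroid plexus gene, 8 choroid plexus genes summed to 47.9 to 55.3 CPM in hESC, 673 to 706 CPM in hDE, 21.3 and 342 in the first and second hAFE libraries and 11.6 to 35.8 in hPFE, mostly OTX2. Of 6 tested, 3 rose in hAFE vs hESC (AQP1, FOLR1 and SLC4A5) and 0 fell. The list median log2 fold change there was 2.41 against 0.01 over all genes, and in hAFE vs hDE 0 were called. In hPFE vs hESC AQP1 and FOLR1 rose and 0 fell. KCNE2 and KL had at most 4 and 9 counts in a library, and the hAFE library with more TTR was the one with less OTX2 (257 against 4548 counts). For PROX1, 10 endothelial genes summed to 275 to 280 CPM in hESC and 24.9 to 44.5 CPM in every later library. In hPFE vs hESC 5 of 6 tested fell, PDPN among them, and LYVE1 had at most 3 counts. PDPN rose in hPFE vs hAFE (32.2 and 29.9 CPM against 16.9 and 17.8), where 0 fell. In hPFE vs hDE PDPN rose and TEK fell. Of 9 lens genes, summing to 35.0 to 42.7 CPM in hPFE against 6.05 to 9.67 in hESC, MAF rose in hPFE vs hESC (adjusted p = 0.0074), and the crystallins CRYAA, CRYBB3 and CRYBA1 had at most 8 counts.

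For ONECUT1 and PROX1, 13 neuronal genes summed to 78.7 to 99.9 CPM in hESC, 206 to 209 CPM in hDE, 193 to 238 in hAFE and 126 to 133 in hPFE, mostly TUBB3. Of 7 tested, 1 rose in hPFE vs hESC, POU3F2, a neural POU factor with 243 and 16 counts in hPFE against 4 and 16 in hESC, and NEUROD1 was at 0 throughout. SOX1 and ELAVL3 had 20 and 15 counts in the first hPFE library and 2 each in the second. For CDX2, also a trophoblast gene, 14 trophoblast and amnion genes summed to 31.4 to 39.0 CPM in hESC, 21.6 to 22.8 CPM in hDE, 51.1 to 147 in hAFE and 132 to 284 in hPFE. In hPFE vs hESC 9 of 12 tested rose and 2 fell, where 45% of all tested genes were called. The list median log2 fold change was 7.34 against 0.02 over all genes. VGLL1 (99 and 142 counts against 0 and 0) and TP63 (239 and 570 against 1 and 0) were among those that rose. VGLL1 and some others of the 9 passed the filter through hPFE alone. Part of those that fell passed it through hESC alone. These calls go with the genes' having been tested. CDX2 itself had 1 and 0 counts in hPFE. For CDX4, 10 streak and posterior mesoderm genes summed to 4.63 to 5.14 CPM in hESC, 82.7 to 99.6 CPM in hDE, nearly all MIXL1, and at most 3.46 CPM in hAFE and hPFE, and TBXT had at most 5 counts.

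The low posterior and hepatic readings were unevenly spread over the libraries. Counting genes that reached 10 counts in exactly 1 of the 8 libraries, the posterior HOX list had 5, all in the first hPFE library. The pancreatic list had 2, both in that library, and the hepatic secreted list 5, with 2 in the first hAFE library, 1 in the second and 2 in the first hPFE library. The intestinal, pharyngeal and definitive endoderm lists had none. ONECUT1 and RFX6 were both far higher in the first than in the second hAFE library (49 and 151 counts against 1 and 1). The 2 libraries of hAFE and of hPFE thus had at most 1 count each of PDX1, CDX1 and CDX2 and differed in how many counts of other posterior genes they held.

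The genes whose levels ran most like those of the called members across the 8 libraries were, for HNF4A, MMP15, HS6ST1 and C12orf65 (Pearson r of log2 CPM 0.992, 0.986 and 0.986), for PROX1, REEP3, SZRD1 and FAM114A1 (0.970, 0.949 and 0.941), and for AFP, ENOX2, ELOVL4 and RBM38 (0.970, 0.967 and 0.966). They are the 3 highest for each gene out of 11130 genes with a stage mean of at least 10 CPM, and the libraries share 4 stages, so the values describe a course and carry no p. MMP15, a membrane metalloproteinase, averaged 31.7 CPM in hESC, 98.8 CPM in hDE, 25.8 CPM in hAFE and 35.0 CPM in hPFE. FAM114A1 averaged 50.2 CPM in hPFE, where PROX1 was highest, against 11.6 CPM in hESC, 17.6 CPM in hDE and 11.9 CPM in hAFE.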

How the data were processed

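RNA-seq of 8 libraries was used, 2 at each of 4 stages. Ribosomal RNA had been removed from total RNA, dUTP kept the strand and reads were paired, per the labels' protocols. The authors' tables are RSEM output, per the submitters' processing notes, which name RSEM, DESeq2 and hg38 with no versions, with the aligner not given in the sources used here. Expected counts, as deposited, are estimated counts per gene, the deposited TPM values allow for length, and the deposited length and posterior SD columns were read as other values. Each table held 59526 rows; 58780 matched GENCODE 29, and 746 rows with no gene identifier held 0 counts.

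For testing, each expected count was rounded to a whole number, and filterByExpr kept 17446 genes. One edgeR 4.0.16 model in R 4.3.3 (TMM scaling, quasi-likelihood test, 4 stage terms, 4 residual degrees of freedom) gave the 6 comparisons, with Benjamini-Hochberg adjustment over all tested genes and a threshold of 0.05. SE is the absolute log2 fold change divided by the square root of F. CPM is after TMM scaling. Intervals are exact 95% binomial ones. They and the limits for a count of 0 cover counting error only: with no molecular identifiers, reads do not count molecules. The alternatives tried were DESeq2 1.42.0, RLE scaling, no filter on counts, only the 4 libraries compared, a replicate block, limma 3.58.1 on log2(TPM + 1) and log2(TPM + 0.1), CPM on the raw total, and leaving out each library. The edgeR test was first tested on simulated counts.

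The 8 genes, the gene lists and the tests were chosen with earlier results of these data known. Named genes are the 8 members, their 11 relatives, from each list up to 3 called genes with the largest change and up to 2 of the highest that did not pass, the 3 genes most like each called member, and neighbours within 5 kb; others are marked as chosen after their values were seen or are named in counts of calls. Some genes of the lists are counted with them but not reported here by name.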

Additional observations from a re-analysis of the deposited data

How the results depend on the processing

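Of 24 log2 fold changes of the 4 tested genes, recomputed to give 346 values, 276 kept their direction and side of the threshold, 21 lost a call, 25 gained one and 24 changed direction; the 6 called results kept theirs. Lost calls that change a statement stand beside it in the text. Directions turned, all for differences not called, on the TPM scale: with log2(TPM + 1) and log2(TPM + 0.1), HNF4A in hPFE vs hESC was -0.0072 and -0.069, PROX1 in hDE vs hESC -0.041 and -0.28, PROX1 in hAFE vs hDE 0.020 and 0.12, PROX1 in hAFE vs hESC -0.021 and -0.16, and AFP in hPFE vs hAFE 0.26 and 0.91, while ONECUT1 in hPFE vs hAFE was 0.37 with log2(TPM + 0.1). Leaving out 1 library at a time gave HNF4A in hPFE vs hESC -3.49 to 1.69, ONECUT1 in hAFE vs hDE -0.12 to 5.20, in hPFE vs hAFE -2.91 to 4.08, in hAFE vs hESC -4.73 to 0.59 and in hPFE vs hESC -3.26 to 0.20, PROX1 in hDE vs hESC -0.10 to 1.48, in hAFE vs hDE -1.51 to 0.32 and in hAFE vs hESC -1.04 to 1.17, and AFP in hPFE vs hAFE -1.16 to 0.56; a stage left with 1 library is assumed to vary like the others.

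The number of genes called in hPFE vs hAFE, 1306, was 3234 with no filter, 52 with only the 4 libraries compared (88.5% of calls higher, against 63.8%), 812 with log2(TPM + 1) and 805 with log2(TPM + 0.1). With log2(TPM + 1) it was 4290 in hAFE vs hESC and 10284 in hPFE vs hDE, and with log2(TPM + 0.1) it was 8366 in hAFE vs hDE and 10867 in hPFE vs hDE. The TPM values were not rescaled: the median over all genes shifted by -0.27 to 0.68 with log2(TPM + 1) and by -0.48 to 1.01 with log2(TPM + 0.1), and the share of calls that were higher ranged from 18.1% to 93.3%, against 48.1% to 63.8% with TMM. Without 1 library the counts were 3695 to 8465 in hDE vs hESC, 2435 to 6363 in hAFE vs hDE, 479 to 1552 in hPFE vs hAFE, 2899 to 8178 in hAFE vs hESC, 3822 to 8422 in hPFE vs hESC and 2630 to 6468 in hPFE vs hDE. Same-numbered replicates did not deviate together (correlations of replicate differences from -0.041 to 0.061), so the numbers pair nothing. With a replicate block the counts were 6909, 4941, 1072, 6471, 7494 and 5493 in the order hDE vs hESC, hAFE vs hDE, hPFE vs hAFE, hAFE vs hESC, hPFE vs hESC and hPFE vs hDE, and PROX1 in hPFE vs hESC had an adjusted p of 0.058. Mean CPM on the raw total moved by more than 1 SD for 1 of 21 stage means, HNF4A in hDE (2.90 CPM). The highest stage was the same on TPM as on CPM for 6 of the 7 genes with counts, CDX2 being the exception.

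With 2 libraries a stage and most values under 10 counts, differences smaller than several fold in these genes were not detectable, and a total of 0 limits a stage only to the level of 3 counts.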
